A study of Mus musculus with 16 samples.

Results

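The comparison of HDAC5AA virus plus optic nerve crush with uninjured mouse retina uses 8 of the 16 RNA-seq samples of the series, the 4 HDAC5AA and 4 Uninjured libraries named by the columns of the all-gene table deposited for this pair. The HDAC5AA retinas came from C57BL/6 adults of around 6 weeks that received AAV-HDAC5AA, an adeno-associated virus, in the vitreous, had the optic nerve crushed with forceps for 3 s about 1 mm behind the disc 2 weeks later, and gave their retinas 4 days after the crush. The Uninjured retinas came from adults of the same strain and age, had no crush, and the labels name no virus for them. Virus and crush therefore differ together between these groups and cannot be told apart within the comparison. GFP (3 libraries analysed here) and HDAC5DAD (4 libraries) had AAV-GFP or AAV-HDAC5DAD and the same crush, and are used at the end only. The labels give neither what AA marks in HDAC5, nor the species of the sequence carried, nor the promoter. The labels do not tell whether replicates are different animals; if they are not, the p-values given here reflect technical spread. The libraries hold whole retina, in which fewer cells of a type and less RNA per cell cannot be told apart.

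Retinal ganglion cells are the output neurons of the retina, and their axons form the optic nerve. A crush severs these axons; in adult mice most of the injured cells later die and few regrow an axon. Injured neurons are known to signal through the DLK and JNK kinases to the transcription factors Jun and Atf3, while Müller glia, the radial glia that span the retina, and microglia, its resident macrophages, turn reactive. HDAC5 is a class IIa histone deacetylase that binds MEF2 transcription factors and moves between nucleus and cytoplasm, and in mouse sensory neurons its export from the nucleus after axon injury has been linked to growth.

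The 4 HDAC5AA libraries held 10940144 to 24233839 gene-assigned reads and the 4 Uninjured libraries 17428631 to 30972052. Ribosomal RNA features took 0.0212% and 0.0498% of reads in HDAC5AA replicates 1 and 2 and 3.44% and 9.87% in replicates 3 and 4, against 1.81%, 0.0396%, 0.0967% and 2.46% in Uninjured replicates 1 to 4, so each group holds 2 libraries on either side of 1%. HDAC5AA replicate 4 was the shallowest library and the richest in ribosomal RNA. The first principal component, 51.7% of the variance, separated the groups.

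Hdac5 itself (ENSMUSG00000008855, chromosome 11, 102194432 to 102230166, minus strand, mm10) did not pass the test. It had 7391, 8002, 8349 and 6633 normalized reads in HDAC5AA replicates 1 to 4, against 6517, 6878, 6811 and 6869 in Uninjured replicates 1 to 4. Replicates 1 to 3 of HDAC5AA lay above every Uninjured library and replicate 4 lay among them. The log2 fold change was 0.16 (SE 0.06, limma adjusted p = 0.13). Reads of a carried sequence that differs from mouse, or lacks its untranslated ends, may not be counted on this gene, so the level does not check the label.

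Of 19714 genes tested with limma on log2(normalized reads + 1), 1060 (5.38%) were higher and 625 (3.17%) lower in HDAC5AA than in Uninjured retinas at a Benjamini-Hochberg adjusted p under 0.05, together 8.55%. The rises were larger than the falls. The median log2 fold change was 0.82 among genes that rose and -0.38 among those that fell, and 469 rises but 77 falls exceeded 1 on the log2 scale. The 4 HDAC5AA and 4 Uninjured libraries did not overlap for 984 of the 1060 and 577 of the 625 (over all genes, 7.23% lay wholly higher and 5.53% wholly lower in HDAC5AA). HDAC5AA replicate 2 was the highest HDAC5AA library for 590 of the 1060 genes that rose; without it 894 rose and 577 fell. Within the libraries under 1% ribosomal RNA, 2 against 2, 621 rose and 160 fell, and within those of at least 1%, also 2 against 2, 500 rose and 363 fell. Of 231 genes chosen for naming that passed with all 8 libraries, 50 did not pass within the first of these pairs and 28 within the second, and none changed direction in either.

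**Figure D1:**
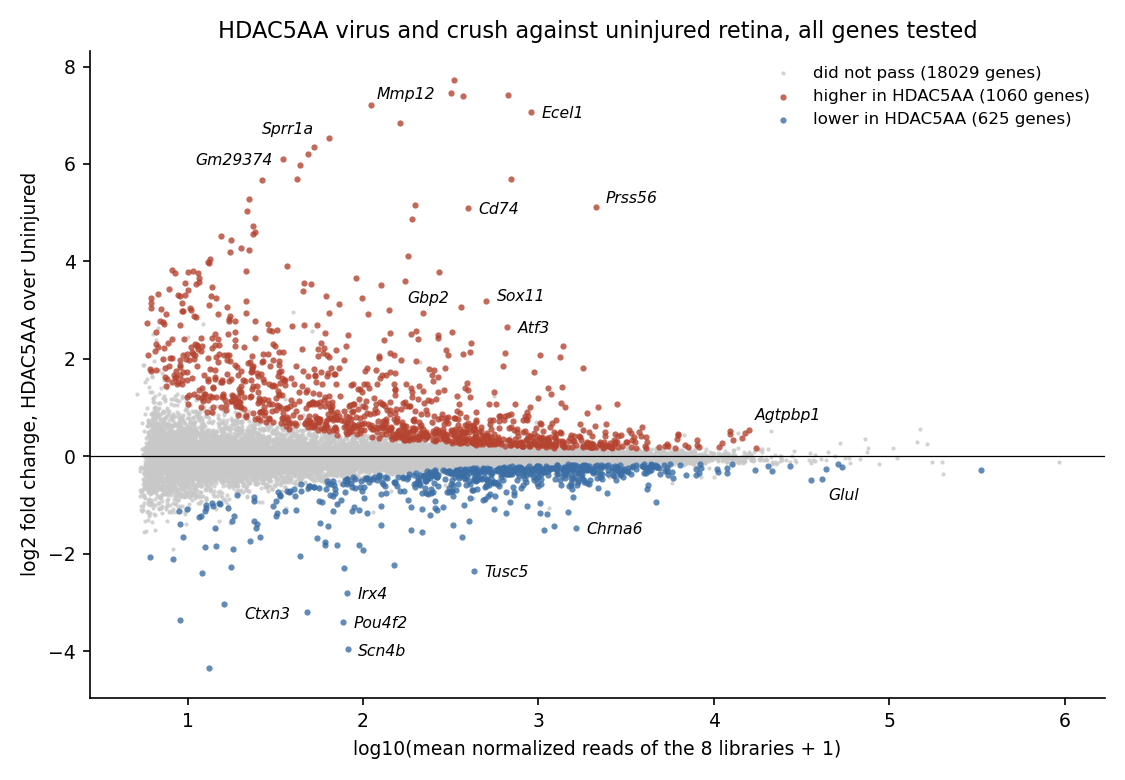
Log2 fold change of HDAC5AA over Uninjured (vertical axis) against mean normalized reads of the 8 libraries (log10 horizontal axis) for the 19714 genes tested. Coloured points are the 1060 genes that rose and the 625 that fell, and labels name genes described in the text; rises reach further from 0 than falls.

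The largest rise in a gene of moderate starting level was that of Prss56, a secreted serine protease that Müller glia make and that is needed for normal eye length. Prss56 had 3049, 6716, 3662 and 3049.5 normalized reads in HDAC5AA replicates 1 to 4, against 112, 90.0, 141 and 110.2 in Uninjured replicates 1 to 4. All HDAC5AA libraries stood far above all Uninjured libraries, and replicate 2 was highest; the log2 fold change was 5.11 (SE 0.30, limma adjusted p = 8.64e-05). Its neighbour Ecel1, an endopeptidase-like gene induced in injured neurons, had 1882, 1965, 1725 and 1646 normalized reads in HDAC5AA replicates 1 to 4, against 11.4, 12.4, 16.4 and 10.3 in Uninjured replicates 1 to 4, a log2 fold change of 7.07 (SE 0.13). Both lie on mouse chromosome 1 (mm10), Ecel1 at 87147655 to 87156521, minus strand, and Prss56 at 87183313 to 87188405, plus strand. The noncoding Gm29374, at 87142874 to 87146983 on the minus strand just beyond the end of Ecel1, had 249 reads over the HDAC5AA libraries and 0 over the Uninjured, at least 105-fold higher against a floor of 3 reads over the group. Gm29374, Ecel1 and Prss56 are successive genes of the table. The next genes on either side, Akp-ps1 and Eif4e2, had log2 fold changes of -0.12 and 0.12 and did not pass. Reads from an Ecel1 transcript that runs past its annotated end cannot be told apart from Gm29374.

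The other named rises from an Uninjured mean of at least 50 were Sox11 (log2 fold change 3.19, SE 0.15), a SoxC developmental factor, Gbp2 (3.06, SE 0.32), Igtp (2.48, SE 0.35) and Irgm2 (2.57, SE 0.31), interferon-inducible GTPases, Atf3 (2.66, SE 0.08), Lad1 (2.56, SE 0.22), an anchoring filament protein, and Edn2 (2.52, SE 0.26), endothelin 2, which stressed photoreceptors are known to secrete. Sox11 had 929, 921, 815 and 960.0 normalized reads in HDAC5AA replicates 1 to 4, against 121, 103, 109.9 and 68.0 in Uninjured replicates 1 to 4. Atf3 had 1263, 1130.1, 1110.1 and 1066 normalized reads in HDAC5AA replicates 1 to 4, against 184, 169, 208 and 162 in Uninjured replicates 1 to 4. Edn2 had 385, 343, 234 and 303 normalized reads in HDAC5AA replicates 1 to 4, against 52.4, 55.3, 33.4 and 84.4 in Uninjured replicates 1 to 4. In none of these did an HDAC5AA library fall inside the Uninjured range, which was a condition for naming them.

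The largest falls from an Uninjured mean of at least 50 included genes that ganglion cells are known to express. Scn4b, a beta subunit of sodium channels, averaged 8.95 ± 1.72 normalized reads in HDAC5AA and 153 ± 15.4 in Uninjured retinas (SD, n = 4), a log2 fold change of -3.96 (SE 0.18, limma adjusted p = 1.58e-11). Pou4f2, the Brn3b factor that specifies ganglion cells, had 32.5, 15.7, 15.9 and 1.93 normalized reads in HDAC5AA replicates 1 to 4, against 140.0, 154, 130.0 and 118 in Uninjured replicates 1 to 4, with -3.40 (SE 0.74, limma adjusted p = 0.0407). HDAC5AA replicate 4 was the lowest of its group for Pou4f2, all Uninjured libraries lay far above, and the call was lost without any 1 of HDAC5AA replicates 2 and 3 or Uninjured replicates 1 to 4, with adjusted p up to 0.109. Further large falls were those of Ctxn3, a cortexin membrane protein (-3.20, SE 0.25), the Iroquois factors Irx4 (-2.80, SE 0.16) and Irx2 (-2.03, SE 0.19), Tusc5, a regulator of glucose transporter traffic in fat (-2.35, SE 0.09), the serotonin receptor Htr1b (-2.30, SE 0.16) and parvalbumin, Pvalb (-2.24, SE 0.13). Tusc5 had 158, 119.8, 138 and 145 normalized reads in HDAC5AA replicates 1 to 4, against 767, 752, 669 and 669 in Uninjured replicates 1 to 4. Pvalb had 55.1, 58.7, 40.3 and 54.0 normalized reads in HDAC5AA replicates 1 to 4, against 244, 241, 259 and 243 in Uninjured replicates 1 to 4. The groups do not overlap in either gene, again a condition for naming them.

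**Figure D2:**
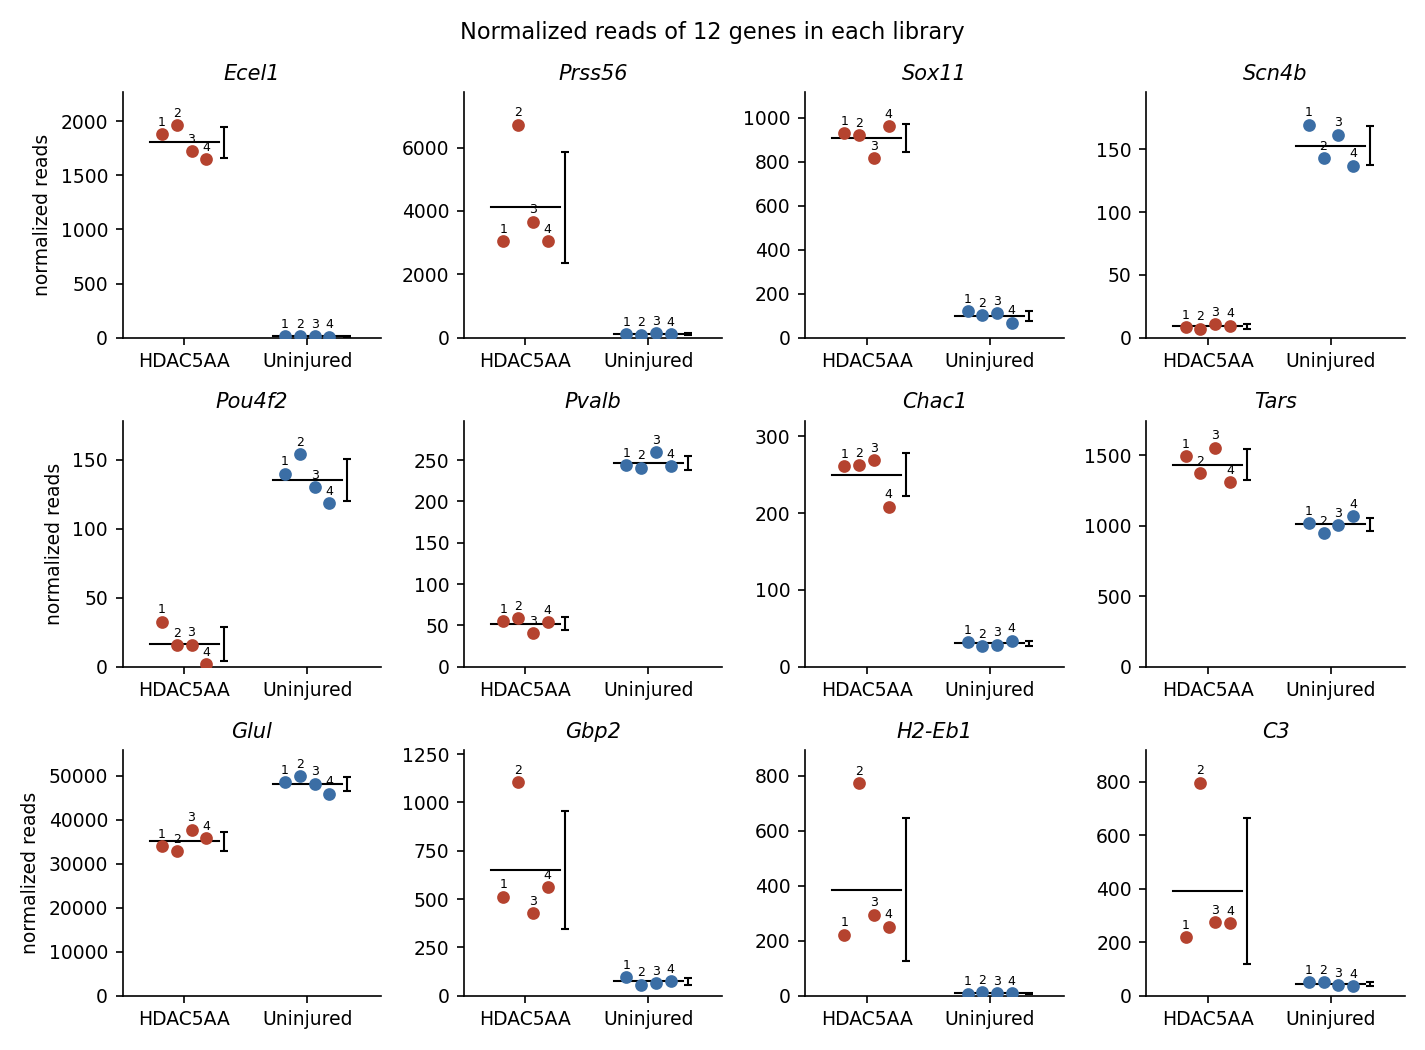
Normalized reads in each library (vertical axes) for 12 named genes, HDAC5AA left and Uninjured right. Points are numbered by replicate, with a line at the mean and a bar of 1 SD (n = 4). The groups do not overlap for any of the 12, a condition of the choice for genes named by size of change or by variation. Replicate 2 is the highest HDAC5AA point for Prss56, Ecel1, Pvalb, Gbp2, H2-Eb1 and C3.

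Counted in normalized reads instead, the largest rises were in Agtpbp1, a deglutamylase of tubulin (18761 ± 998 normalized reads in HDAC5AA against 12978 ± 627 in Uninjured, mean ± SD, n = 4), Apoe, the lipid carrier of glia (17672 ± 719 in HDAC5AA against 12615 ± 774 in Uninjured), Ptp4a3, a phosphatase (14486 ± 1819 in HDAC5AA against 10099.9 ± 1008 in Uninjured) and Gnb3, a G protein subunit of cones and ON bipolar cells (14324 ± 1829 in HDAC5AA against 10314 ± 645 in Uninjured). The nuclear importer Tnpo1, the photoreceptor matrix protein Impg2 and the secreted Dkk3 gained by log2 0.39 (SE 0.05), 0.28 (SE 0.05) and 0.17 (SE 0.05); the Dkk3 call was lost without any 1 of HDAC5AA replicates 1, 2 and 3 or Uninjured replicates 3 and 4. The largest losses of reads were in Glul, the glutamine synthetase of Müller glia, which had 33967, 32872, 37682 and 35759.8 normalized reads in HDAC5AA replicates 1 to 4, against 48508, 49895, 48168 and 45889 in Uninjured replicates 1 to 4. All 4 HDAC5AA libraries lay below the Uninjured ones for Glul, as its naming required, with a log2 fold change of -0.46 (SE 0.05, limma adjusted p = 2.44e-06). Pkm, a glycolytic kinase, fell by 0.23 on the log2 scale, Tcf20, a transcriptional coregulator, by 0.26, Snap25, a synaptic fusion protein, by 0.30, and the calmodulin gene Calm3 by 0.27. Photoreceptor genes Pdc, phosducin (-0.49, SE 0.11), and Rom1, a disc rim protein (-0.15, SE 0.04), passed but lost the call without HDAC5AA replicate 1 or Uninjured replicate 1, 3 or 4 (Pdc), and without any 1 of HDAC5AA replicates 2, 3 and 4 or Uninjured replicates 1, 3 and 4 (Rom1).

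Genes were then read in groups, given as how many measured members passed in each direction beside the 5.38% and 3.17% of all genes. The groups share some members. Genes under 41 reads in all have no row, so a gene with few Uninjured reads is measured only where its HDAC5AA reads are many. This can raise the share of rises in groups of low genes. Genes with near-identical copies (the Gbp, Tgtp, Irgm, H2, Ifit3, immunoglobulin, tubulin, crystallin, protocadherin and calmodulin families) may share reads, and their single values are uncertain. In parentheses, values with ± are means and SDs of normalized reads (n = 4 per group) and values with an SE are log2 fold changes.

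**Figure D3:**
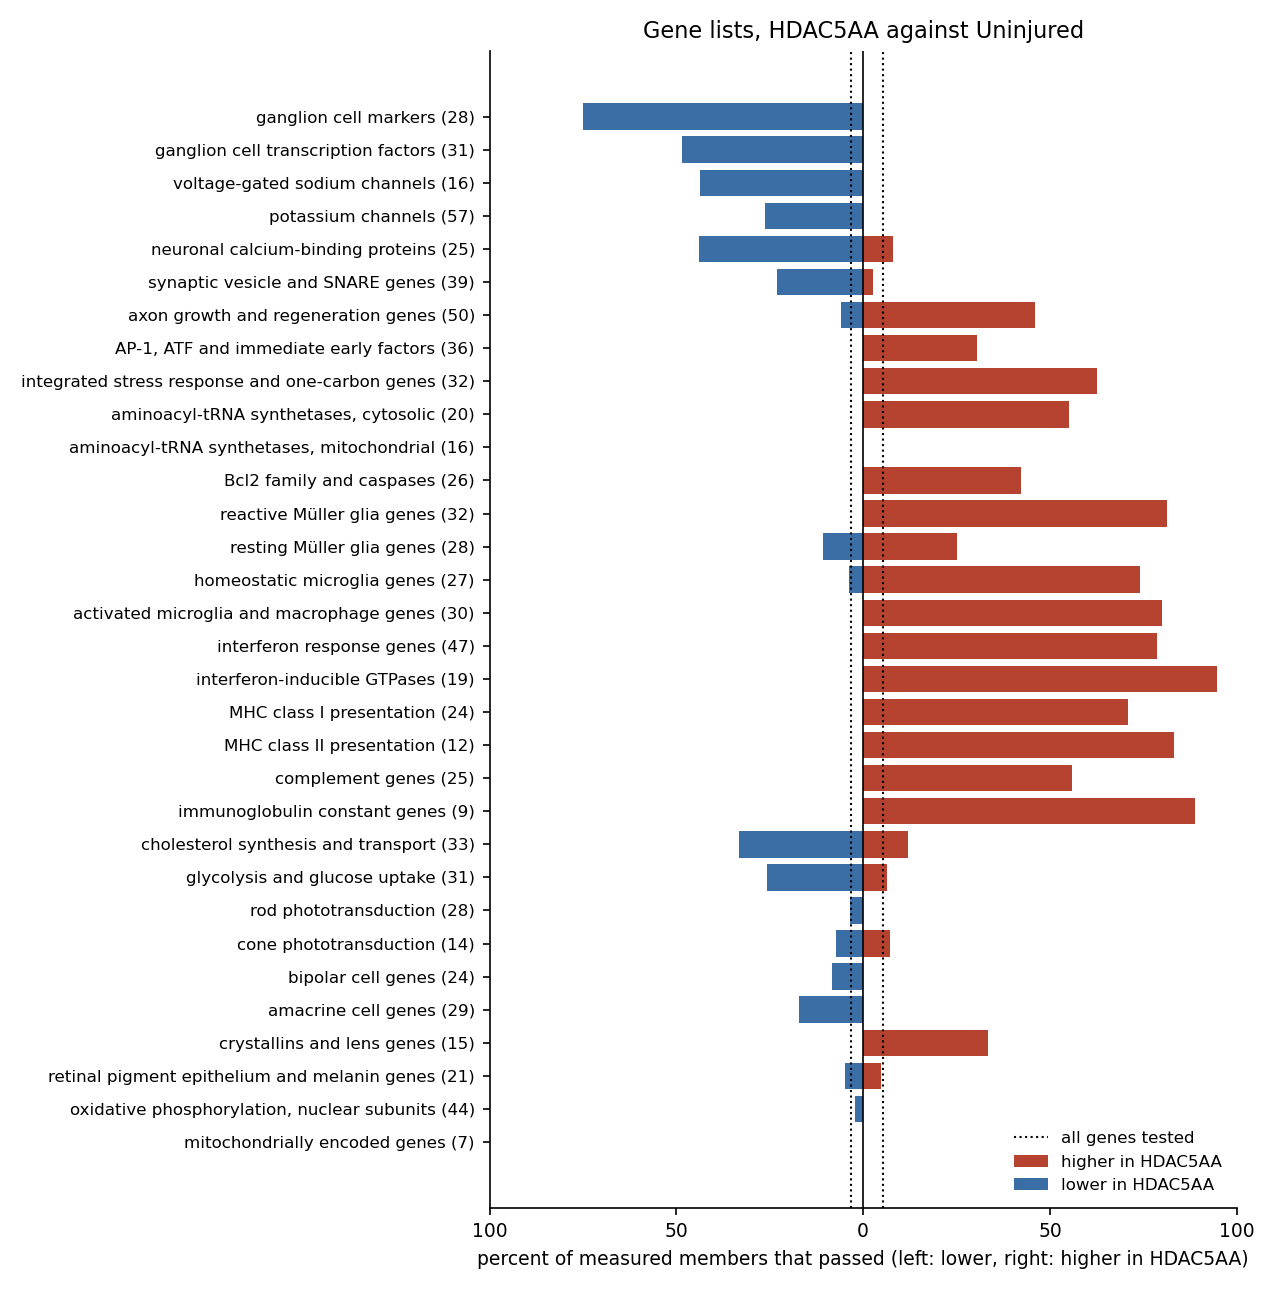
Percent of the measured members of 32 gene groups that passed the limma test, lower in HDAC5AA to the left and higher to the right, with dotted lines at the 3.17% and 5.38% of all genes. The interferon-inducible GTPases, immunoglobulin constant genes and MHC class II genes reach furthest right and the ganglion cell markers furthest left. Genes under 41 reads in all have no row, which can raise the share of rises in groups of low genes.

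Ganglion cell markers were lower in HDAC5AA retinas: 21 of 28 fell, none rose, and the median log2 fold change was -0.69 against -0.0064 for all genes. Their summed level was 24588, 24514, 22589 and 23402 normalized reads in HDAC5AA replicates 1 to 4, against 40888, 37539.9, 36781 and 37626 in Uninjured replicates 1 to 4. The sum thus separated the groups with a narrow spread. The nicotinic receptor subunit Chrna6 had 821, 861, 903 and 889 normalized reads in HDAC5AA replicates 1 to 4, against 2568, 2281, 2329 and 2392 in Uninjured replicates 1 to 4. The synuclein Sncg had 631, 542, 514 and 557 normalized reads in HDAC5AA replicates 1 to 4, against 1768, 1544, 1565 and 1517 in Uninjured replicates 1 to 4. The RNA-binding protein Rbpms, a pan-ganglion cell marker, had 161, 154, 188 and 162 normalized reads in HDAC5AA replicates 1 to 4, against 356, 347, 319 and 369.7 in Uninjured replicates 1 to 4. No library crossed over in these 3 genes. Markers did not fall alike. Rbpms2 fell by 1.93 and the surface glycoprotein Thy1 by 0.53 on the log2 scale, while the glutamate transporter Slc17a6 had 986, 985, 856 and 1010.1 normalized reads in HDAC5AA replicates 1 to 4, against 1213, 972, 1001 and 1041 in Uninjured replicates 1 to 4, with overlapping libraries and adjusted p = 0.351 by limma.

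Of 31 ganglion cell transcription factors 15 fell and none rose (median -0.40). Besides Irx2, Irx4 and Pou4f2 these were led by Pou4f1, the Brn3a factor (176 ± 28.4 in HDAC5AA against 554 ± 14.3 in Uninjured), Isl2, a LIM factor (41.5 ± 8.27 in HDAC5AA against 147 ± 6.02 in Uninjured), and Irx6 (279 ± 26.3 in HDAC5AA against 413 ± 23.2 in Uninjured). Genes that mark single ganglion cell subtypes were mixed, with 4 higher and 9 lower of 37. Opn4, the melanopsin of intrinsically photosensitive cells, had 39.8, 38.4, 37.8 and 40.5 normalized reads in HDAC5AA replicates 1 to 4, against 93.3, 67.7, 74.1 and 69.0 in Uninjured replicates 1 to 4. Prkcq, a protein kinase C, fell by 0.86 on the log2 scale. The subtype genes that rose were Spp1, osteopontin, a marker of alpha cells and also of macrophages (258 ± 38.9 in HDAC5AA against 136 ± 27.8 in Uninjured), the peptide Adcyap1 (141 ± 35.3 in HDAC5AA against 55.0 ± 10.0 in Uninjured), the actin-binding Tagln2 (157 ± 26.5 in HDAC5AA against 58.3 ± 2.25 in Uninjured) and annexin Anxa3 (103 ± 4.60 in HDAC5AA against 42.9 ± 4.15 in Uninjured).

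Channel and receptor genes fell more often than they rose. Of 16 genes for sodium channels and their partners 7 fell and none rose. Scn1a, the Nav1.1 pore subunit, had 879, 869, 862 and 1039 normalized reads in HDAC5AA replicates 1 to 4, against 2312, 1856, 1993 and 1903 in Uninjured replicates 1 to 4; replicate 4 stood above the other HDAC5AA libraries and still below all Uninjured ones. Fgf12, a cytosolic channel partner, fell by 0.63 and the subunit Scn2b by 0.60 on the log2 scale, whereas Scn8a, the Nav1.6 pore subunit of axon initial segments, had 2397 ± 133 normalized reads in HDAC5AA against 2648 ± 119 in Uninjured with overlapping libraries (adjusted p = 0.127, limma). Of 57 potassium channel genes 15 fell and none rose, led by Kcnd2, an A-type channel (145 ± 15.2 in HDAC5AA against 335 ± 38.4 in Uninjured), its partner Kcnip4 (-0.81, SE 0.09) and the sodium-activated Kcnt1 (-0.42, SE 0.06). Of 11 nicotinic subunits 4 fell, among them Chrnb3 (-0.99, SE 0.11) and Chrnb2 (-0.25, SE 0.05), and 1 rose, a call lost without HDAC5AA replicate 4 or Uninjured replicate 3. Of 42 GABA and glutamate receptor genes 8 fell, led by Grin2a (-0.77, SE 0.10) and Grin1 (-0.34, SE 0.07) of the NMDA receptor, and 1 rose. Those 8 became 3 without HDAC5AA replicate 3 or Uninjured replicate 1, and were also fewer by over 1.5 times without HDAC5AA replicate 1 or Uninjured replicate 3. The rise was lost without any 1 of replicates 2, 3 and 4 of either group.

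Genes of the cytoskeleton changed in both directions. The neurofilaments Nefl (3209 ± 219.9 in HDAC5AA against 6095 ± 317 in Uninjured), Nefh (688 ± 43.9 in HDAC5AA against 1557 ± 165 in Uninjured) and Nefm (618 ± 38.2 in HDAC5AA against 966 ± 80.3 in Uninjured) fell, while the glial filaments Vim (4703 ± 473 in HDAC5AA against 3079 ± 169 in Uninjured), Nes (383 ± 107 in HDAC5AA against 149.8 ± 21.7 in Uninjured) and Gfap (1196 ± 164 in HDAC5AA against 596 ± 119 in Uninjured) rose. In all, 7 of 14 filament and synuclein genes fell and 3 rose. Among 36 tubulin and microtubule genes 13 fell, including neuronal Tubb3 (-0.74, SE 0.07), Tuba4a (-0.61, SE 0.06) and the axonal motor Kif5a (-0.45, SE 0.05), and 5 rose, led by Tubb6 (0.97, SE 0.11) and the stathmin Stmn4 (0.76, SE 0.11). The 5 became 2 without HDAC5AA replicate 1 or 2 or Uninjured replicate 3 or 4, and were also fewer by over 1.5 times without HDAC5AA replicate 3 or Uninjured replicate 1. Of 39 synaptic vesicle genes 9 fell and 1 rose. The fast-release genes Vamp1 (631 ± 75.4 in HDAC5AA against 1402 ± 56.8 in Uninjured), Cplx1 (692 ± 49.0 in HDAC5AA against 1341 ± 136 in Uninjured) and Syt2 (436 ± 18.7 in HDAC5AA against 626 ± 54.1 in Uninjured) fell, and Syt4, an activity-regulated synaptotagmin, rose (2305 ± 120.1 in HDAC5AA against 1738 ± 114 in Uninjured). Of 25 neuronal calcium-binding genes 11 fell, among them calretinin, Calb2 (-0.67, SE 0.05), and visinin-like Vsnl1 (-0.86, SE 0.09), and 2 rose, 1 of which was lost without any 1 of HDAC5AA replicates 1 and 2 or Uninjured replicates 1, 3 and 4.

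Of 50 axon growth and regeneration genes 23 rose and 3 fell (median 0.34). Sprr1a, a small proline-rich protein induced in injured neurons, had 467 reads over the 4 HDAC5AA libraries and 2 over the 4 Uninjured, a ratio of 295 after scaling for depth (exact 95% interval 81.3 to 2446, counting error only). By library, Sprr1a had 136, 131, 92.7 and 141 normalized reads in HDAC5AA replicates 1 to 4, against 2.28, 0, 0 and 0 in Uninjured replicates 1 to 4. Every HDAC5AA library held it and 3 of the 4 Uninjured libraries did not. Sprr1a has a row only through its HDAC5AA reads, so its rise supports nothing about the axon growth genes as a group. Tnfrsf12a, the TWEAK receptor, had 860.4, 580.3, 655 and 553 normalized reads in HDAC5AA replicates 1 to 4, against 126, 135, 176 and 159.6 in Uninjured replicates 1 to 4. Gap43, the growth cone protein, had 911, 853, 833 and 829 normalized reads in HDAC5AA replicates 1 to 4, against 571, 418, 449 and 466 in Uninjured replicates 1 to 4. The groups did not overlap for either gene. Klf6, a growth-promoting zinc finger factor, rose by 0.72, and the cytokine receptor subunit Il6st by 0.50 on the log2 scale. Sox4, the close relative of Sox11, had a log2 fold change of -0.43 (SE 0.12) with overlapping libraries, and its call was lost without any 1 of HDAC5AA replicates 3 and 4 or Uninjured replicates 1 and 2.

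The promoter of Sprr1a is shown because it holds 2 copies of the letters of an AP-1 element, the site of Jun and Fos family dimers, in the window nearest the start. It is given 5′ to 3′ on the gene's strand, 200 bases before the start (RefSeq, GRCm38.p6, chr3:92485882-92486081, minus strand), with the matches to TGANTCA in capitals, 146 and 116 bases before the start.
Sprr1a: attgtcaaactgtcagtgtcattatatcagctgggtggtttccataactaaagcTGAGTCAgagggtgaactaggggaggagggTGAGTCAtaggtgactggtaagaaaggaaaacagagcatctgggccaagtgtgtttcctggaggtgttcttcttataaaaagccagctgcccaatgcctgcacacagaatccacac
These letters, searched on both strands from 250 bases before to 50 after each start, were in 7.81% of all 32851 RefSeq windows, 9.76% of 984 windows of genes that rose, 4.3% of 675 windows of genes that fell and 5.1% of 14453 windows of genes that did not pass. Among axon growth genes 7 of 42 windows held them. A match describes letters and is not a shown site.

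Of 36 AP-1, ATF and immediate early genes 11 rose and none fell. Jun had 1375, 1234, 1064 and 1382 normalized reads in HDAC5AA replicates 1 to 4, against 849, 873, 695 and 759 in Uninjured replicates 1 to 4. Atf4 had 7163 ± 526 normalized reads in HDAC5AA against 5312 ± 497 in Uninjured and Atf5 426 ± 55.5 normalized reads in HDAC5AA against 271 ± 22.7 in Uninjured. Of 24 genes of the DLK and JNK pathway 5 rose and 4 fell. Sox11 and Jun were among the rises, and the 4 falls became 2 without any 1 of HDAC5AA replicates 2, 3 and 4 or Uninjured replicates 1, 2 and 4. Of 26 Bcl2 family and caspase genes 11 rose. Hrk, a BH3-only death activator of neurons, had 209.7, 220.1, 192 and 262 normalized reads in HDAC5AA replicates 1 to 4, against 47.8, 38.0, 38.9 and 41.2 in Uninjured replicates 1 to 4. Every HDAC5AA library lay above every Uninjured library for Hrk. Bbc3, known as Puma, rose by 0.88, Bcl2l11, known as Bim, by 0.42, and Casp12, an endoplasmic reticulum caspase, by 1.57 on the log2 scale, while the pore-former Bax had 377 ± 26.2 normalized reads in HDAC5AA against 358 ± 34.2 in Uninjured and did not pass. Of 27 p53 targets 6 rose, among them the cycle inhibitor Cdkn1a (42.5 ± 13.2 in HDAC5AA against 9.16 ± 3.43 in Uninjured) and Sesn2 (662 ± 40.9 in HDAC5AA against 397 ± 47.8 in Uninjured). Trp53 itself had a log2 fold change of -0.45 (SE 0.12), the only member that fell, and lost the call without any 1 of HDAC5AA replicates 1 to 4 or Uninjured replicate 3.

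Of 31 neuropeptide genes 6 rose and 1 fell. Ucn, urocortin, had 39.8, 21.1, 15.9 and 17.3 normalized reads in HDAC5AA replicates 1 to 4, against 0, 0, 3.64 and 0 in Uninjured replicates 1 to 4. The stress peptide Crh had 45.2, 53.3, 31.7 and 27.0 normalized reads in HDAC5AA replicates 1 to 4, against 7.97, 10.7, 13.4 and 17.5 in Uninjured replicates 1 to 4. Vgf, a secreted precursor induced by neurotrophins, had 2302, 2098, 1968 and 1529 normalized reads in HDAC5AA replicates 1 to 4, against 595, 719.9, 791 and 824 in Uninjured replicates 1 to 4. All 3 were higher in each HDAC5AA library than in any Uninjured library. Ucn has a row only through its HDAC5AA reads, so its rise supports nothing about the neuropeptide genes as a group. The processing enzyme Pcsk2 fell by 0.37 on the log2 scale; without HDAC5AA replicate 2 or Uninjured replicate 3 2 genes fell. Galanin, Gal, had 27.3 ± 18.7 normalized reads in HDAC5AA against 9.23 ± 3.27 in Uninjured with overlapping libraries (adjusted p = 0.085, limma). Of 38 neurotrophic factor and receptor genes 7 rose. Fgf2 had 3401, 2981, 2191 and 2554 normalized reads in HDAC5AA replicates 1 to 4, against 874, 816, 614 and 835 in Uninjured replicates 1 to 4. Fgf1 had 472, 498, 465 and 466 normalized reads in HDAC5AA replicates 1 to 4, against 968, 909, 898 and 855 in Uninjured replicates 1 to 4. These growth factors moved in opposite directions, with no overlap in either. The cytokines Lif (51.7 ± 18.4 in HDAC5AA against 14.4 ± 4.80 in Uninjured) and Csf1 (171 ± 28.8 in HDAC5AA against 77.8 ± 8.96 in Uninjured) and the receptor Osmr (576 ± 73.5 in HDAC5AA against 201 ± 22.4 in Uninjured) rose. The 2 falls of this group became 1 without HDAC5AA replicate 3 or Uninjured replicate 1 and 4 without HDAC5AA replicate 2.

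The integrated stress response, in which stressed or amino acid-starved cells raise Atf4 and its targets, rose in 20 of 32 genes, and none fell (median 0.59). Chac1, a glutathione-degrading Atf4 target, had 261, 262, 268 and 208 normalized reads in HDAC5AA replicates 1 to 4, against 31.9, 26.4, 28.5 and 34.0 in Uninjured replicates 1 to 4. Replicate 4 was the lowest HDAC5AA library and still above every Uninjured library, with a log2 fold change of 3.01 (SE 0.13, limma adjusted p = 1.28e-11). Phgdh, the first enzyme of serine synthesis, had 83.1, 119, 85.4 and 102 normalized reads in HDAC5AA replicates 1 to 4, against 23.9, 18.2, 18.8 and 18.5 in Uninjured replicates 1 to 4. The next enzyme, Psat1, rose by 0.75, asparagine synthetase Asns by 0.83, the stress cofactor Nupr1 by 1.48 and Ddit3, known as Chop, by 0.75 on the log2 scale. The aminoacyl-tRNA synthetases, which charge tRNAs with amino acids, rose in 11 of 20 cytosolic cases with none lower (median 0.25), and none of 16 mitochondrial enzymes passed in either direction (median -0.03). The difference between these sets was not tested. Tars had 1493, 1373, 1553 and 1309 normalized reads in HDAC5AA replicates 1 to 4, against 1016, 947, 1004 and 1065 in Uninjured replicates 1 to 4. Aars had 7679, 7547, 7462 and 6355 normalized reads in HDAC5AA replicates 1 to 4, against 5498, 5356, 5036 and 5217 in Uninjured replicates 1 to 4, and its mitochondrial counterpart Aars2 had 802, 824, 862 and 867 normalized reads in HDAC5AA replicates 1 to 4, against 942, 928, 962 and 929.9 in Uninjured replicates 1 to 4. HDAC5AA lay above Uninjured throughout for Tars and Aars, and Aars2 did not pass (log2 fold change -0.17, SE 0.06, adjusted p = 0.0787, limma). Nars and Sars rose by 0.41 and 0.39 on the log2 scale. Of 33 amino acid transporters 6 rose: the cationic transporter Slc7a3 (1.48, SE 0.13), the cystine importer Slc7a11 (176 ± 17.6 in HDAC5AA against 83.4 ± 9.06 in Uninjured), the serine and alanine carrier Slc1a4 (572 ± 93.8 in HDAC5AA against 302 ± 19.9 in Uninjured) and the leucine carrier Slc7a5 (991 ± 147 in HDAC5AA against 684 ± 42.3 in Uninjured) were among them. Eif4ebp1, a brake on translation that Atf4 is known to induce, rose by 1.08 and was, with Sesn2, the only change among 36 mTOR and PI3K genes.

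The promoters of Chac1 and Tars, and of Atf3 from the AP-1, ATF and immediate early genes, are shown for certain letters. These are the letters of the amino acid response element core, to which Atf4 is known to bind. Each is 200 bases before the start, 5′ to 3′ on the gene's strand (RefSeq, GRCm38.p6), with matches to TGATGNAA on either strand in capitals: Chac1 at chr2:119351042-119351241 on the plus strand, Atf3 at chr1:191183334-191183533 on the minus strand and Tars at chr15:11399659-11399858 on the minus strand.
Chac1: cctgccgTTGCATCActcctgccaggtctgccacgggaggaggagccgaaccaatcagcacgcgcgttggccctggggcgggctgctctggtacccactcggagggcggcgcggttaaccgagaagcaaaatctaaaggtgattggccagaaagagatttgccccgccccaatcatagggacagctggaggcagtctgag
Atf3: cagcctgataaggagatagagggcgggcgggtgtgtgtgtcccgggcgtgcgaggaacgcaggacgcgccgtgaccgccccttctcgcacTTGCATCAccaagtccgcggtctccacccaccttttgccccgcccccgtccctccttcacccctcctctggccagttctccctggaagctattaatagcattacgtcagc
Tars: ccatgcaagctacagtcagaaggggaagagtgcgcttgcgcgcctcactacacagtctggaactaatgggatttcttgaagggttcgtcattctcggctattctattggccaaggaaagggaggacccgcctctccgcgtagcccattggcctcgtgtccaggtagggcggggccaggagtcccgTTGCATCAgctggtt
All 3 matches read TTGCATCA, the element on the opposite strand, at 193 bases before the start in Chac1, 110 in Atf3 and 15 in Tars. The letters were in 8 of 34 windows of integrated stress response genes, in 5 of 12 windows of cytosolic synthetases (those of Aars, Gars, Iars, Tars and Yars) and in 0 of 14 windows of mitochondrial synthetases, against 3.97% of all windows. They stood in 4.57% of windows of genes that rose, 1.93% of those that fell and 2.21% of those that did not pass.

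Müller glia genes tied to injury rose widely: 26 of 32 reactive genes rose and none fell (median 1.23). Their summed level was 31073, 32236, 24189 and 26968 normalized reads in HDAC5AA replicates 1 to 4, against 16005, 15098, 13079 and 14939 in Uninjured replicates 1 to 4. The sum separated the groups. Stat3, which carries cytokine signals to the nucleus, had 4468, 3680.2, 3170.5 and 4013 normalized reads in HDAC5AA replicates 1 to 4, against 1954, 1892, 1618 and 1733 in Uninjured replicates 1 to 4. Its feedback inhibitor Socs3 had 528, 361, 292 and 335 normalized reads in HDAC5AA replicates 1 to 4, against 94.5, 119.7, 106 and 145 in Uninjured replicates 1 to 4. The hyaluronan receptor Cd44 had 615, 617, 484 and 492 normalized reads in HDAC5AA replicates 1 to 4, against 222, 199.8, 191 and 215 in Uninjured replicates 1 to 4. Each of the 3 genes kept its groups apart. The galectin Lgals3 rose by 1.82 and the factor Cebpd by 2.08 on the log2 scale. Lcn2, lipocalin 2, had 188, 884, 124 and 206 normalized reads in HDAC5AA replicates 1 to 4, against 77.4, 75.1, 62.6 and 53.5 in Uninjured replicates 1 to 4. Replicate 2 was far above the other 3 HDAC5AA libraries, and Lcn2 did not pass (adjusted p = 0.157, limma).

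Genes of resting Müller glia were mixed, 7 higher and 3 lower of 28. With Glul, Spc25, a kinetochore gene, fell (1706 ± 176 in HDAC5AA against 2661 ± 111 in Uninjured), while Crym, a thyroid hormone-binding crystallin (2449 ± 323 in HDAC5AA against 1318 ± 105 in Uninjured), Pdpn, podoplanin (1074 ± 104 in HDAC5AA against 629 ± 43.7 in Uninjured), and Apoe rose. Of 29 JAK-STAT genes 9 rose and none fell, among them Irf9 (1.09, SE 0.07) and Bcl3, an atypical NF-kB inhibitor (2.07, SE 0.22). The metal-binding Mt1 (1269 ± 199.6 in HDAC5AA against 782 ± 93.5 in Uninjured) and Mt2 (476 ± 84.9 in HDAC5AA against 205 ± 56.2 in Uninjured) rose, whereas the neuronal Mt3 had 108, 118, 104 and 86.7 normalized reads in HDAC5AA replicates 1 to 4, against 184, 149, 129 and 144 in Uninjured replicates 1 to 4 and was lower by 0.53 on the log2 scale, a call lost without Uninjured replicate 1. Other iron and metal genes that rose were heme oxygenase Hmox1 (1.39, SE 0.17), the macrophage metal transporter Slc11a1 (1.65, SE 0.21) and ceruloplasmin, Cp (0.41, SE 0.08); 8 of 23 rose in all.

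Microglia and macrophage genes rose. Of 30 genes of activated cells 24 rose and none fell (median 1.98), and of 27 homeostatic microglia genes 20 rose and 1 fell (median 1.22); that fall was lost without any 1 of HDAC5AA replicates 1, 2 and 4 or Uninjured replicates 1, 3 and 4. Summed activation genes gave 3005, 4401, 3345 and 3250.0 normalized reads in HDAC5AA replicates 1 to 4, against 1208, 991, 976 and 1039 in Uninjured replicates 1 to 4. Replicate 2 was highest and all 4 HDAC5AA sums exceeded every Uninjured sum. The cathepsin Ctss had 862, 1411, 978 and 952 normalized reads in HDAC5AA replicates 1 to 4, against 254, 254, 224 and 215 in Uninjured replicates 1 to 4. The lysosomal protein Cd68 had 152, 175, 152 and 168 normalized reads in HDAC5AA replicates 1 to 4, against 37.6, 43.8, 46.8 and 54.6 in Uninjured replicates 1 to 4. The macrophage surface gene Adgre1, known as F4/80, averaged 102 ± 27.6 normalized reads in HDAC5AA and 16.6 ± 2.17 in Uninjured retinas (SD, n = 4). All 3 separate the groups in each library. The integrin Itgax rose by 4.24, the oxidase subunit Cybb by 3.91, the pore-former Mpeg1 by 2.13, Tyrobp by 2.13, Trem2 by 1.69 and the lineage factor Irf8 by 1.76 on the log2 scale. Cx3cr1, a chemokine receptor of microglia, rose by 1.22. P2ry12, a purinergic receptor of resting microglia, had 59.7, 94.8, 83.0 and 71.3 normalized reads in HDAC5AA replicates 1 to 4, against 79.7, 71.0, 74.1 and 69.0 in Uninjured replicates 1 to 4. The lectin Siglech had 24.4, 36.0, 26.8 and 28.9 normalized reads in HDAC5AA replicates 1 to 4, against 26.2, 23.1, 33.4 and 35.0 in Uninjured replicates 1 to 4. Libraries overlapped in both, and neither passed. Tyrobp and Ctss are made by other macrophages as well as by microglia.

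Interferon-regulated genes rose: 37 of 47 response genes rose and none fell (median 1.09), and 18 of 19 interferon-inducible GTPases rose (median 2.57). The GTPases, which attack vacuoles of intracellular pathogens, summed to 2684, 5745, 2618 and 2959 normalized reads in HDAC5AA replicates 1 to 4, against 667, 604, 603 and 581 in Uninjured replicates 1 to 4. Replicate 2 had the highest sum, all HDAC5AA sums lay above every Uninjured sum, and 18 GTPases passed without any single library. Gbp2 had 512, 1104, 428 and 563 normalized reads in HDAC5AA replicates 1 to 4, against 96.8, 57.0, 65.6 and 74.1 in Uninjured replicates 1 to 4. Irgm1 had 356, 792, 326 and 339 normalized reads in HDAC5AA replicates 1 to 4, against 87.6, 80.1, 79.0 and 63.8 in Uninjured replicates 1 to 4. Ifi47 had 78.6, 114, 73.2 and 71.3 normalized reads in HDAC5AA replicates 1 to 4, against 4.55, 7.43, 6.68 and 6.18 in Uninjured replicates 1 to 4. HDAC5AA replicate 2 leads in all 3 and no library crosses. Gbp8 had 118 reads over HDAC5AA and 2 over Uninjured libraries, a ratio of 74.6 (exact 95% interval 20.2 to 623). Tgtp1 had 82 and 3 reads. Both genes have a row only through their HDAC5AA reads, so their rise supports nothing about the GTPases as a group. The count of 18 of 19 and its median include them. Other members with few Uninjured reads may have a row for the same reason, so that count is a description. Gbp9 rose by 2.07, the antiviral Ifit1 by 1.67, Trim30a by 2.70 and Parp14 by 1.34 on the log2 scale, whereas Irf7, a master factor of type I interferon, had 488, 408, 442 and 532 normalized reads in HDAC5AA replicates 1 to 4, against 474, 425, 426 and 309 in Uninjured replicates 1 to 4, with overlap and adjusted p = 0.439 by limma.

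The promoters of Ifit1, Gbp2 and Irgm1 are shown for the letters of an interferon-stimulated response element, bound by STAT and IRF factors. Each is 200 bases before the start, 5′ to 3′ on the gene's strand (RefSeq, GRCm38.p6), with matches to TTTC, any 2 bases and TTTC on either strand in capitals: Ifit1 at chr19:34640689-34640888 and Gbp2 at chr3:142620463-142620662 on the plus strand and Irgm1 at chr11:48871421-48871620 on the minus strand.
Ifit1: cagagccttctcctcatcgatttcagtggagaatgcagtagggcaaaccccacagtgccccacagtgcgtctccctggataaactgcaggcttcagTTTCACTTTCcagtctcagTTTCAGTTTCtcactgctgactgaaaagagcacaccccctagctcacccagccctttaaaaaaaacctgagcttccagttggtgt
Gbp2: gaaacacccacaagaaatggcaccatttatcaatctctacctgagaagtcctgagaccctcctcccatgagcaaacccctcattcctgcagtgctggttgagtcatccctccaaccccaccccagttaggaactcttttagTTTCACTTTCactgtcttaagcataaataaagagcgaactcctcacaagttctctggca
Irgm1: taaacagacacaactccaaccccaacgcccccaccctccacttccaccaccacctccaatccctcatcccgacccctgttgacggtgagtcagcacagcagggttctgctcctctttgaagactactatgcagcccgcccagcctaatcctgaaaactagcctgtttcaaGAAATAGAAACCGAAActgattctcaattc
Ifit1 holds the letters 104 and 85 bases before the start and Gbp2 59 bases before it. Irgm1 holds a pair of overlapping matches on the opposite strand, 30 and 24 bases before the start. The letters were in 9 of 11 windows of interferon-inducible GTPases, 16 of 40 of interferon response genes and 5 of 22 of MHC class I genes, against 3.44% of all windows. They were in 8.33% of windows of genes that rose, 2.67% of those that fell and 2.64% of those that did not pass. For the STAT element (TTCNNNGAA) the shares were 8.3% of all windows, 10.5% for genes that rose, 6.67% for genes that fell and 6.59% for genes that did not pass. For the NF-kB element (GGGA, any 2 bases, TTCC) they were 1.47% of all windows, 2.24% for rises, 1.19% for falls and 1.38% for genes that did not pass. The letters CTA, any 4 bases, TAG are looser than the MEF2 element in the middle and stricter at the ends. They can take in other letters and miss some forms of the element. They were in 3.69% of all windows, 2.34% for rises, 3.41% for falls and 3.27% for genes that did not pass. None of 24 windows of ganglion cell marker genes held them (0 of 24).

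Antigen presentation rose in both classes. Of 24 MHC class I genes 17 rose and none fell (median 1.17). B2m, the shared light chain, had 1786, 3872, 1805 and 1793 normalized reads in HDAC5AA replicates 1 to 4, against 469, 451, 402 and 499 in Uninjured replicates 1 to 4. H2-K1 had 1874, 3110.0, 1871 and 1733 normalized reads in HDAC5AA replicates 1 to 4, against 520.2, 475, 525 and 505 in Uninjured replicates 1 to 4. Replicate 2 was set well apart from the other HDAC5AA libraries in both, and all HDAC5AA libraries exceeded the Uninjured ones. The class I transactivator Nlrc5 rose by 3.52, H2-D1 by 1.41, H2-Q6 by 2.94 and the immunoproteasome subunit Psmb9 by 2.26 on the log2 scale. Of 12 class II genes 10 rose and none fell (median 1.88), and their sum was 2451, 5882, 2869 and 2597 normalized reads in HDAC5AA replicates 1 to 4, against 522, 543, 477 and 460.3 in Uninjured replicates 1 to 4. Cd74, the invariant chain, had 516, 1512, 609.9 and 439.5 normalized reads in HDAC5AA replicates 1 to 4, against 21.6, 27.2, 14.6 and 14.4 in Uninjured replicates 1 to 4. H2-Eb1 had 222, 774, 294 and 251 normalized reads in HDAC5AA replicates 1 to 4, against 6.83, 11.6, 7.90 and 8.24 in Uninjured replicates 1 to 4. Replicate 2 was highest in both genes, and each HDAC5AA library lay far above the Uninjured ones. H2-Aa rose by 4.87 on the log2 scale. Class II genes were, with C3, Wdfy4 (2.58, SE 0.38), Clec7a (2.68, SE 0.30) and Fcgr2b, among the genes that varied most between HDAC5AA libraries. Fcgr2b had 13.6, 109, 41.5 and 36.6 normalized reads in HDAC5AA replicates 1 to 4, against 12.5, 3.30, 3.64 and 6.18 in Uninjured replicates 1 to 4. Its call was lost without HDAC5AA replicate 3 or 4 or Uninjured replicate 2, 3 or 4.

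**Figure D4:**
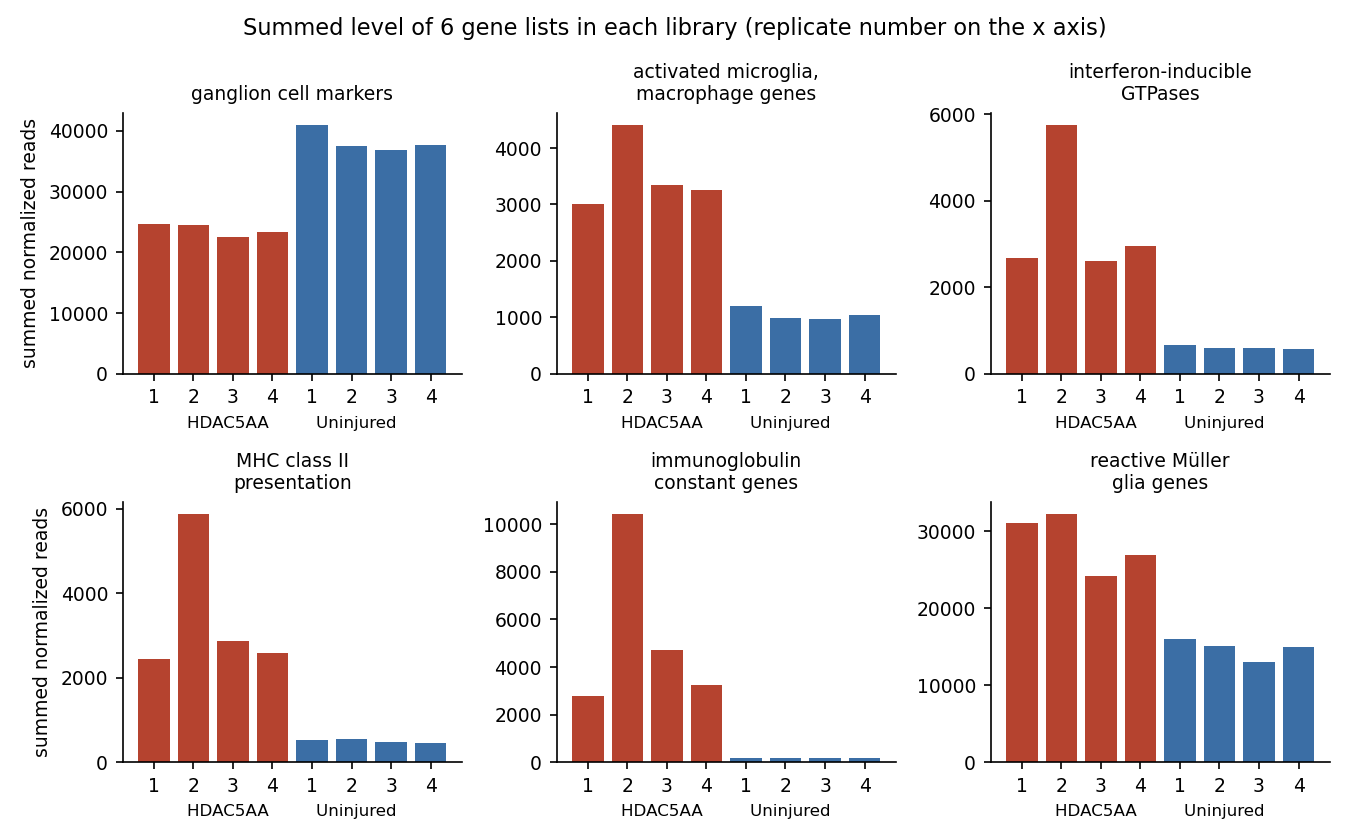
Summed normalized reads of 6 gene groups in each library, HDAC5AA replicates 1 to 4 left and Uninjured replicates 1 to 4 right, on linear axes from 0. Ganglion cell markers are lower in all 4 HDAC5AA libraries, and replicate 2 is the tallest HDAC5AA bar for the interferon-inducible GTPases, MHC class II genes and immunoglobulin constant genes.

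Complement genes rose in 14 of 25 cases, with none lower (median 0.97). C1qa, of the classical pathway, had 568, 985, 576 and 613 normalized reads in HDAC5AA replicates 1 to 4, against 145, 131, 111 and 148 in Uninjured replicates 1 to 4. C3, the central component, had 219.6, 798, 276 and 272 normalized reads in HDAC5AA replicates 1 to 4, against 51.2, 50.4, 38.3 and 36.0 in Uninjured replicates 1 to 4. Replicate 2 was again the highest, and no libraries overlapped. The receptor C3ar1 rose by 2.20 and the integrin chain Itgb2 by 2.33 on the log2 scale. Of 25 chemokine and receptor genes 9 rose. Cxcl9 had 169 reads over HDAC5AA libraries and 0 over Uninjured, at least 71.2-fold higher against a floor of 3 reads over the group, while Ccl2 (3.15, SE 0.52), Ccl12 (2.27, SE 0.38) and Cxcl10 (3.24, SE 0.52) rose from low levels. Cxcl9 has a row only through its HDAC5AA reads, so its rise supports nothing about the chemokines as a group. Of 31 Toll-like receptor and inflammasome genes 11 rose, led by Tlr2 (2.58, SE 0.22) and Tlr13 (2.09, SE 0.29).

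Genes of T, NK and B cells rose in part, and immunoglobulin genes rose. Of 36 lymphocyte markers listed 22 had a row in the table, Cd3e and Ms4a1 not among them; 9 rose (5 with a mean filter of 10), and without HDAC5AA replicate 4, the shallowest library, 14 rose. Their sum ran from 2861 to 3874 normalized reads in HDAC5AA and from 2265 to 2489 in Uninjured libraries. Cd52 had 65.1, 153, 79.3 and 71.3 normalized reads in HDAC5AA replicates 1 to 4, against 9.11, 6.60, 4.25 and 7.21 in Uninjured replicates 1 to 4. The T cell gene Cd3g had 40 reads over HDAC5AA libraries and 1 over Uninjured, a ratio of 50.6 (exact 95% interval 8.57 to 2048), and Cd2 had 39 and 2, a ratio of 24.7 (6.39 to 211). Genes under 41 reads in all have no row, so Cd3g and Cd2 have one through their HDAC5AA reads. The count of lymphocyte markers that rose therefore supports nothing about the group. Of 9 immunoglobulin constant genes 8 rose, and of all 33 immunoglobulin genes 23 rose. The table holds no gene under 41 reads, and most of the 33 have 3 reads or fewer over the Uninjured libraries, so they have a row through their HDAC5AA reads and these counts support nothing about the family. The constant genes summed to 2794, 10431, 4736 and 3267 normalized reads in HDAC5AA replicates 1 to 4, against 169.6, 166, 164 and 194 in Uninjured replicates 1 to 4. Igkc, the kappa light chain, had 685, 2735, 1072 and 808 normalized reads in HDAC5AA replicates 1 to 4, against 5.69, 3.30, 7.29 and 7.21 in Uninjured replicates 1 to 4. Igha had 525, 1109, 747 and 578 normalized reads in HDAC5AA replicates 1 to 4, against 2.28, 5.78, 3.64 and 2.06 in Uninjured replicates 1 to 4. Uninjured libraries held few reads of either gene. Ighg2b rose by 7.72, Ighm by 4.11, Ighg1 by 6.83 and Ighg2c by 5.68 on the log2 scale. Every HDAC5AA library held these antibody transcripts, in differing amounts. Neutrophil and mast cell markers gave 1 rise, Csf3r (28.1 ± 6.88 in HDAC5AA against 9.93 ± 3.13 in Uninjured), and 1 fall, Mmp9, a gelatinase that neurons and glia also make (169 ± 12.0 in HDAC5AA against 289 ± 40.4 in Uninjured), among 6 measured; without HDAC5AA replicate 2, 2 genes rose. No blood or platelet marker of 6 passed (1 without Uninjured replicate 3), and their sum was 615, 537, 568 and 453 in HDAC5AA replicates 1 to 4 and 493, 338, 730.1 and 528 normalized reads in Uninjured replicates 1 to 4, with overlap.

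Among proteases, 9 of 31 rose and 3 fell. The plasminogen activator Plat had 787, 825, 605 and 630.3 normalized reads in HDAC5AA replicates 1 to 4, against 361, 319, 333 and 323 in Uninjured replicates 1 to 4. Mmp12, the macrophage elastase, had 631, 662, 687 and 553 normalized reads in HDAC5AA replicates 1 to 4, against 0, 4.13, 5.47 and 4.12 in Uninjured replicates 1 to 4. Both were higher in every HDAC5AA library. Mmp12 has a row only through its HDAC5AA reads, so its rise supports nothing about the proteases or the macrophage genes as groups. Adamts1 rose by 1.00 on the log2 scale. Serpinb1b, a serpin, was lower, with 3 reads over HDAC5AA libraries and 73 over Uninjured (Uninjured mean 15.3 normalized reads), a ratio of 0.0520 (exact 95% interval 0.0105 to 0.158). Of matrix genes 6 of 61 rose and 3 fell, with laminin Lamb3 up by 1.25 and Lamb1 down by 0.47 on the log2 scale, and 3 rose without HDAC5AA replicate 2 or Uninjured replicate 3. Of 25 endothelial, pericyte and adhesion genes 6 rose, which became 2 without Uninjured replicate 1 or 4 and 3 without HDAC5AA replicate 2 or 4 or Uninjured replicate 2. The adhesion receptors Icam1 (88.3 ± 12.0 in HDAC5AA against 20.4 ± 3.91 in Uninjured) and Vcam1 (465 ± 98.1 in HDAC5AA against 246 ± 20.7 in Uninjured) rose. Vwf, von Willebrand factor, had 585, 1233, 690.5 and 694 normalized reads in HDAC5AA replicates 1 to 4, against 294, 379, 289 and 267 in Uninjured replicates 1 to 4, with replicate 2 far above the rest and the call lost without Uninjured replicate 1, 3 or 4. Of 18 annexin and S100 genes 7 rose, among them S100a16 (0.75, SE 0.08) and S100a10 (0.78, SE 0.10), and of 36 lysosomal genes 12 rose, among them Ctsc (1.08, SE 0.11) and Ctsh (0.88, SE 0.11).

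Genes of other retinal cell classes fell in few cases, most often among amacrine cell genes. The falls were 1 of 28 rod, 1 of 14 cone, 1 of 14 horizontal, 2 of 24 bipolar and 5 of 29 amacrine cell genes, beside 3.17% of all genes. These shares rest on few genes, and whether a class differs from all genes was not tested. Of 28 rod genes Rom1 fell, a call lost without any 1 of HDAC5AA replicates 2, 3 and 4 or Uninjured replicates 1, 3 and 4, or with edgeR, and 1 gene rose without HDAC5AA replicate 4. Of 14 cone genes Gnb3 rose and the nuclear receptor Rxrg fell (103 ± 12.6 in HDAC5AA against 153 ± 6.26 in Uninjured), and 2 fell without HDAC5AA replicate 2. Of 14 horizontal cell genes Calb1, calbindin, fell (1019 ± 55.6 in HDAC5AA against 1247 ± 25.4 in Uninjured), and 1 gene rose without Uninjured replicate 2. Of 24 bipolar cell genes 2 fell, Gpr179 (-0.22, SE 0.06) and Pcp2 (-0.22, SE 0.06); without HDAC5AA replicate 3 neither passed and without HDAC5AA replicate 2 or Uninjured replicate 1 the count moved by over 1.5 times as well. Of 29 amacrine cell genes 5 fell, of which Calb2 is made by ganglion cells too. Their summed level ran from 37329 to 39591 normalized reads in HDAC5AA and from 40663 to 44462 in Uninjured libraries, without overlap. The sums of the rod, cone, bipolar and horizontal cell genes overlapped between the groups. The medians of these groups lay between -0.13 and 0.01. Genes of tissues next to the retina were checked. Of 15 lens genes 5 rose, Crym included (3 with a pseudocount of 0.1); Cryba1 (32.5 ± 5.52 in HDAC5AA against 11.7 ± 8.10 in Uninjured) and Crybb1 (21.2 ± 3.80 in HDAC5AA against 8.53 ± 2.65 in Uninjured) rose, whereas Cryaa had 29.8, 73.6, 118 and 94.5 normalized reads in HDAC5AA replicates 1 to 4, against 4.55, 11.6, 3.64 and 62.8 in Uninjured replicates 1 to 4 and overlapped. Of 21 pigment epithelium and melanin genes Rdh10, a retinol enzyme, rose (1412 ± 69.7 in HDAC5AA against 1067 ± 83.4 in Uninjured) and Pmel, a melanosome protein, fell (18.9 ± 8.45 in HDAC5AA against 42.6 ± 7.74 in Uninjured); 2 rose without Uninjured replicate 4, and 2 fell without HDAC5AA replicate 4 or Uninjured replicate 3. What part carried-over tissue has in these values was not tested.

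In metabolism, 11 of 33 cholesterol genes fell and 4 rose. The regulator Insig1 (1514 ± 30.2 in HDAC5AA against 2129 ± 66.8 in Uninjured) and the synthesis enzyme Fdft1 (741 ± 24.6 in HDAC5AA against 966 ± 13.5 in Uninjured) fell, and the macrophage hydroxylase Ch25h (17.4 ± 8.26 in HDAC5AA against 1.45 ± 1.55 in Uninjured) and Apoe rose; the 4 rises became 2 without any 1 of HDAC5AA replicate 2 and Uninjured replicates 1, 3 and 4. Glycolysis and glucose uptake genes fell in 8 of 31 cases, among them Aldoc (-0.33, SE 0.05) and Ldhb (-0.36, SE 0.06), and 2 rose, 1 of which was lost without any 1 of replicates 2 and 4 of either group. Of 44 nuclear respiratory chain genes 1 fell, or 0 without Uninjured replicate 1 and 2 without HDAC5AA replicate 2 or Uninjured replicate 2. Of 7 mitochondrially encoded genes none passed. Chaperones rose in 6 of 30 cases, led by mitochondrial Hspa9 (0.30, SE 0.05) and small Hspb8 (0.63, SE 0.12). Cell cycle genes rose in 7 of 36 cases. Top2a and Mki67, given next, have a row only through their HDAC5AA reads, so their values support nothing about the group. Top2a had 13.6, 62.7, 19.5 and 21.2 normalized reads in HDAC5AA replicates 1 to 4, against 5.69, 1.65, 4.25 and 1.03 in Uninjured replicates 1 to 4. The proliferation gene Mki67 had 11.7, 39.9, 12.2 and 17.3 normalized reads in HDAC5AA replicates 1 to 4, against 2.28, 6.60, 3.64 and 3.09 in Uninjured replicates 1 to 4, and Ccnd1, a cyclin also made by Müller glia, rose by 0.70 on the log2 scale. Of 56 axon guidance genes 3 rose (6 with DESeq2) and 5 fell, including Plxnd1 (0.54, SE 0.10) up and the receptors Robo2 (-0.34, SE 0.06) and Epha4 (-0.27, SE 0.05) down; 3 fell without Uninjured replicate 1. Of 25 class I and II deacetylase, MEF2 and kinase genes Hdac11 (-0.33, SE 0.05) and Camk2b (-0.22, SE 0.05) fell and none rose, except 1 without HDAC5AA replicate 4.

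Of 2188 long noncoding genes 25 rose and 17 fell. The largest rises were Gm29374, the interferon-inducible AW112010, which had 22.6, 33.7, 28.1 and 30.8 normalized reads in HDAC5AA replicates 1 to 4, against 5.69, 0.826, 3.04 and 2.06 in Uninjured replicates 1 to 4, Gm16174 (2.94, SE 0.47) and AU020206 (1.85, SE 0.25). Gm16174 lies inside Bcl3 on the opposite strand, and whether reads were counted by strand is not given in the sources used here, so these cannot be told apart. The largest falls were 2600014E21Rik (-3.03, SE 0.34), Gm9866 (-1.11, SE 0.19), Pitpnm2os1 (-0.78, SE 0.23) and Gm13446 (-0.76, SE 0.15), of which Gm13446 overlaps the end of Dab2ip and Pitpnm2os1 lost the call without HDAC5AA replicate 3 or 4 or Uninjured replicate 1 or 2.

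The libraries of the 3 virus groups were then compared on a joint scale over 19495 genes. They share the Uninjured libraries, so only direct differences between virus groups were tested. Against GFP 0 of 19495 genes (0%) passed limma's adjusted p under 0.05. At an unadjusted p under 0.05 there were 1284 genes (6.59%), edgeR gave 0 adjusted and 1219 unadjusted, DESeq2 0 and 979, and the smallest adjusted p by limma was 0.737. Hdac5 had 7474, 8065, 8444 and 6694 normalized reads in HDAC5AA replicates 1 to 4 and 6566, 6613 and 6673 in GFP replicates 2 to 4, a log2 difference of 0.21 (SE 0.07, limma adjusted p = 0.737). All 4 HDAC5AA libraries lay above the 3 GFP libraries, but replicate 4 at 6694 barely exceeded the highest GFP library at 6673, and Hdac5 did not pass. The share of all genes apart in this way was not counted. Against HDAC5DAD 2 genes passed (0.0103%), each at adjusted p = 0.0447 by limma, and both calls rest on the setting used: edgeR called 0 and DESeq2 9, and leaving out 1 library gave 0 to 5, with 0 without HDAC5AA replicate 3 or 4 or HDAC5DAD replicate 3 or 4. Agtpbp1 had 20394, 18073, 18401 and 18924 in HDAC5AA replicates 1 to 4, 21300.5, 24661, 24796 and 23371 in HDAC5DAD replicates 1 to 4 and 13624, 12408, 12751 and 13641 normalized reads in Uninjured replicates 1 to 4, lower in HDAC5AA than in HDAC5DAD by 0.31 on the log2 scale. Prdm13, a factor of amacrine cells, had 947, 916, 877 and 862 in HDAC5AA, 696, 759, 640.2 and 721 in HDAC5DAD and 895, 831, 917 and 909.8 normalized reads in Uninjured libraries, and was higher in HDAC5AA than in HDAC5DAD by 0.36.

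The authors' deposited table of genes unique to HDAC5AA holds 57 genes, all lower in HDAC5AA than in Uninjured and chosen on these same values, as genes under their adjusted p of 0.1 in this comparison and in neither other. Their fall here is therefore a description. By the limma test 29 of the 57 passed as lower, beside 3.17% of all genes, and 39 lay wholly lower in HDAC5AA, beside 5.53% of all genes. The median log2 fold change over Uninjured was -0.36 in HDAC5AA, -0.22 in GFP and -0.24 in HDAC5DAD, against -0.0073, 0.0075 and -0.0082 over all genes. In the direct differences, 10 members had an unadjusted p under 0.05 against GFP, beside 6.59% of all genes, and 7 against HDAC5DAD, beside 6.78% of all genes. None passed after adjustment, with a smallest adjusted p by limma of 0.737 against GFP and 0.654 against HDAC5DAD. The members were picked for low HDAC5AA values, which raises these counts, so they are a description.

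Members of this list include the matricellular growth factor Ctgf, with 256, 320.5, 254 and 319 normalized reads in HDAC5AA replicates 1 to 4, 325, 346 and 264 in GFP replicates 2 to 4, 298, 460.4, 332 and 264 in HDAC5DAD replicates 1 to 4 and 796, 672, 567 and 233 in Uninjured replicates 1 to 4. Uninjured replicate 4 lay below every injured library for Ctgf, and the other 3 Uninjured libraries lay above them all. The JNK activator Map2k7 averaged 1481 normalized reads in HDAC5AA, 1508 in GFP, 1504 in HDAC5DAD and 1669.7 in Uninjured libraries, and the endosomal GTPase Rab11a 1041 in HDAC5AA, 1061 in GFP, 1146 in HDAC5DAD and 1193 in Uninjured. The melanin genes Pmel, Tyr and Oca2 belong to the list too. Tyr, tyrosinase, had 9.14, 11.8, 14.8 and 1.95 in HDAC5AA replicates 1 to 4, 20.7, 65.8 and 21.6 in GFP replicates 2 to 4, 25.6, 39.5, 13.9 and 11.3 in HDAC5DAD replicates 1 to 4 and 29.9, 13.4, 14.7 and 37.3 in Uninjured replicates 1 to 4. Pmel had 10.1, 26.8, 25.9 and 13.6 in HDAC5AA replicates 1 to 4, 68.7, 234 and 34.5 in GFP replicates 2 to 4, a mean of 38.8 in HDAC5DAD and 44.9, 41.8, 52.1 and 33.2 in Uninjured replicates 1 to 4. GFP replicate 3 was far the highest of its group for Tyr and Pmel. Oca2 had 10.1, 9.47, 3.70 and 3.89 in HDAC5AA replicates 1 to 4, 6.62, 56.3 and 23.7 in GFP replicates 2 to 4, 9.96, 26.1, 14.8 and 5.12 in HDAC5DAD replicates 1 to 4 and 20.7, 12.5, 6.74 and 46.7 in Uninjured replicates 1 to 4, again with GFP replicate 3 highest of its group. These are genes of pigment cells, which lie outside the neural retina, and their share in the list was not tested.

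**Figure D5:**
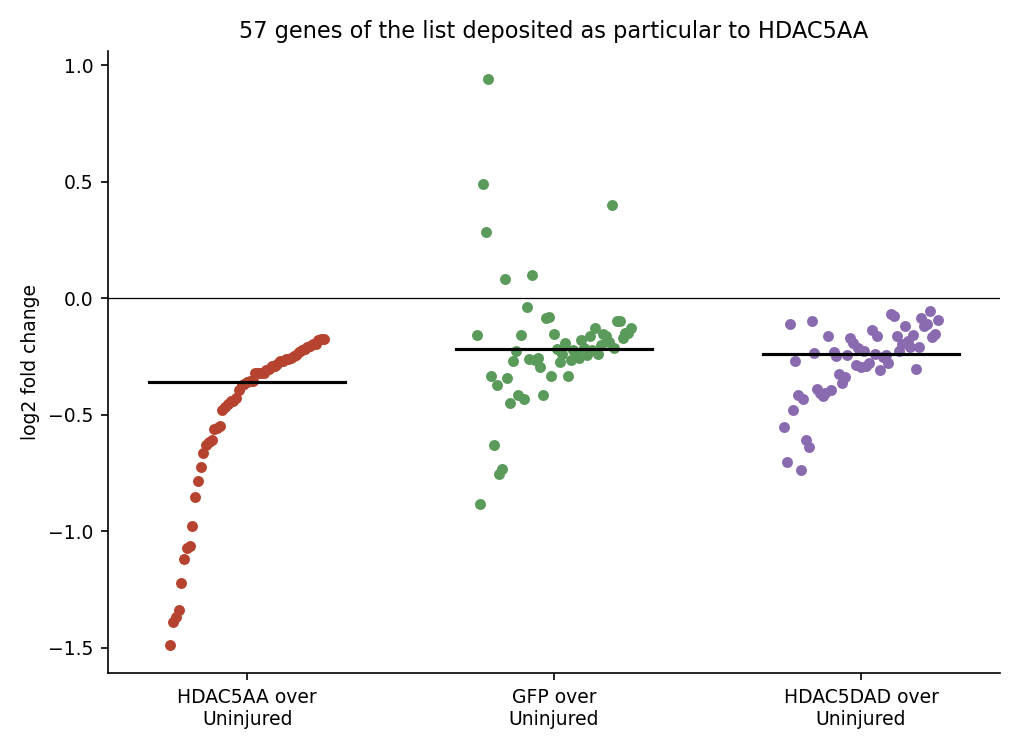
Log2 fold change over Uninjured of the 57 genes of the deposited list in HDAC5AA, GFP and HDAC5DAD, 1 point a gene, in the order of the HDAC5AA values in each group, with a line at the median (-0.36, -0.22 and -0.24). The 3 groups share the Uninjured libraries, and the genes were chosen on the HDAC5AA values.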

How the data were processed

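Whole mouse retinas were sequenced after ribosomal RNA depletion (Ribo-Zero) and Clontech SMARTer amplification as single reads on an Illumina HiSeq, per the labels' protocols. The authors used STAR, HTSeq and DESeq2 with mm10, per the submitters' processing notes; versions and the strand setting of counting are not given in the sources used here. The deposited values are gene counts divided by 1 size factor per library by the authors (a normalized signal with no length correction, called normalized reads), beside the authors' deposited log2 fold changes and p-values, which were not used except through the deposited list of 57 genes. Dividing each column by the value of 1 read gave whole numbers for 100% of values within 0.01, and these recovered reads, equal for Uninjured libraries between tables over shared genes, entered edgeR and DESeq2. No gene has under 41 reads in the HDAC5AA table of 19714 genes, so genes of low counts are not analysed here. Per-sample columns left unused numbered 0. Of 20278 gene IDs 20190 matched GENCODE M21, used for gene types and positions.

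HDAC5AA and Uninjured libraries were compared with limma 3.58.1 (trend, robust) on log2(normalized reads + 1), with a mean filter of 1 that removed no gene and Benjamini-Hochberg adjustment over all genes. Fold changes on this scale understate the change of low genes. HDAC5AA was set against GFP and HDAC5DAD in 1 limma fit of 15 libraries, on reads rescaled by medians of ratios over 19495 genes. The script was tested on simulated data. Alternatives were pseudocounts of 0.1 and 10, a mean of at least 10, TMM scaling, edgeR 4.0.16, DESeq2 1.42.0, a replicate block, ribosomal RNA classes and each library left out. Same-numbered HDAC5AA and Uninjured libraries had correlations of their deviations from the group means of -0.384, 0.412, -0.0549 and 0.196, so numbers were not taken as pairs. Ratios of summed reads carry exact binomial intervals for counting error only; reads have no molecular identifiers.

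The members and the 66 gene lists were chosen with earlier results of these data known, as were the genes named. Those are the 8 largest changes in each direction by log2 fold change (Uninjured mean of at least 50) and by normalized reads, 4 long noncoding RNAs in each direction, 6 genes variable among HDAC5AA libraries, the 57 deposited genes, and per list 4 members with the smallest adjusted p plus well known ones. The largest changes, long noncoding RNAs and variable genes were taken only from genes that passed and whose libraries do not overlap between the groups. For these genes the lack of overlap is a condition of the choice. Akp-ps1, Eif4e2 and the genes given only by read sums were added after their values were seen. Some genes that the rule named are not reported here. Promoter windows came from RefSeq (GRCm38.p6).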

Additional observations from a re-analysis of the deposited data

Results flagged for a closer look

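Of 512 sets of 4 libraries checked for a single library far from the rest, 53 had a gap to the nearest other library, as a share of the whole range, above Dixon's 95% critical value for 4 libraries. That value is made for about 1 in 20 independent sets of normally distributed values. The sets here include genes chosen for their variation among HDAC5AA libraries, sums beside their own members, and genes with reads in 1 library only. The 53 therefore cannot be set against 1 in 20 and are a description. HDAC5AA libraries account for 32 and Uninjured libraries for 21, and HDAC5AA replicate 2 was the highest in 26 of the 32. These genes, with the share of the range, were Prss56 (0.833), Igtp (0.922), Vsnl1 (0.845), Pcsk2 (0.835), Lcn2 (0.892), Mt2 (0.834), C1qa (0.893), Cybb (0.879), Parp14 (0.853), Irgm1 (0.935), H2-K1 (0.898), B2m (0.991), H2-Eb1 (0.87), H2-Aa (0.869), Cd74 (0.841), Itgb2 (0.869), C3 (0.903), Ccl12 (0.865), Cd52 (0.838), Csf3r (0.858), Vwf (0.831) and Top2a (0.844), most of them genes of immune cells or of the interferon response. Many of the genes checked were chosen from lists of immune and interferon genes. The sums of 4 groups stood apart in the same library: homeostatic microglia genes (0.838), interferon-inducible GTPases (0.891), MHC class II presentation (0.878) and neutrophil and mast cell markers (0.909). These sums contain genes flagged above. Lcn2 alone makes up most of the neutrophil and mast cell sum in HDAC5AA replicate 2, so that sum does not stand for the group. Other HDAC5AA libraries stood apart for Ctxn3 (0.856) with replicate 3 highest, Slc17a6 (0.838) with replicate 3 lowest, Anxa3 (0.835) with replicate 1 lowest, Scn1a (0.904) with replicate 4 highest, and Chac1 (0.881) and Aars (0.836) with replicate 4 lowest.

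Among Uninjured libraries replicate 1 was far highest for Fgf12 (0.881), Sprr1a (1), Phgdh (0.884), Cybb (0.835) and Trim30a (0.952). Replicate 2 was highest for Iglc1 (1) and Rxrg (0.844) and lowest for Psmb9 (0.879). Replicate 3 was highest for Pvalb (0.862), Ucn (1), Ddit3 (0.913), Gbp8 (1), Cd3g (1) and Cd2 (1) and lowest for Csf1 (0.967), C1qb (0.958) and Calb1 (0.906). Replicate 4 was highest for Tnpo1 (0.962), Lamb3 (0.891), Cryaa (0.866) and Crybb2 (0.874). A share of 1 marks genes with no reads in the other 3 libraries.

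Injured groups differed directly from each other in a pair of genes. The log2 fold change of HDAC5AA over HDAC5DAD was 0.356 for Prdm13 and -0.311 for Agtpbp1, both at adjusted p = 0.0447 by limma and neither passing with edgeR.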

How the results depend on the processing

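Counts of genes past an adjusted p of 0.05 moved by over 1.5 times in the ribosomal RNA classes of 2 against 2 libraries, a construction with fewer samples: 621 rose and 160 fell under 1%, and 500 rose and 363 fell at 1% or more. In the other settings 1000 to 1083 or, with the replicate block, 1111 rose, and 596 to 654 or, with the block, 660 fell; leaving out 1 library gave 894 to 1040 rises and 446 to 607 falls. The numbers do not pair the samples, so the block is a setting only. HDAC5AA against GFP gave 0 genes with a pseudocount of 0.1, a mean of at least 10, edgeR, DESeq2, the block, the ribosomal RNA class as a covariate and each library left out, the settings run for it. Against HDAC5DAD the 2 genes became 0 with a pseudocount of 0.1, a mean of at least 10, edgeR or the block, 9 with DESeq2 and 0 to 5 when 1 library was left out; the cause was not tested.

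Of 231 named genes that passed, outside the ribosomal RNA classes at most 5 lost the call in a setting with all libraries (edgeR), and 12 lost it without at least 1 library; none reversed in any setting. Of 87 gene group counts above 0, 26 moved by over 1.5 times when 1 library was left out, 51 within the libraries under 1% ribosomal RNA, 40 within those of at least 1%, and 0 to 5 in the other settings. With the block, 6 rather than 3 axon guidance genes and 11 rather than 7 neurotrophic genes rose. The 95% interval of a log2 fold change reached a median of 0.224 to either side before any adjustment for the number of genes.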

Other observations

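Some protein-coding genes held almost all their reads in 1 group; these were chosen after their values were seen. Colec10, a collectin, had 36, 71, 48 and 30 reads in HDAC5AA replicates 1 to 4 and 0 in all Uninjured libraries, at least 78.0-fold higher against a floor of 3 reads over the group. Cox6a2, a muscle-type subunit of cytochrome oxidase, had 121 reads over HDAC5AA and 3 over Uninjured libraries, a ratio of 51.0 (exact 95% interval 17.0 to 251). Hoxb9, a homeobox gene of the posterior body axis, had 10, 15, 20 and 6 reads in HDAC5AA replicates 1 to 4 and 0 in Uninjured libraries, at least 21.5-fold higher. Ppp1r1c, a phosphatase inhibitor gene, had 1 read over HDAC5AA libraries and 28, 23, 52 and 14 in Uninjured replicates 1 to 4.

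Immunoglobulin variable genes differed between the HDAC5AA libraries. Ighv3-6 had 21, 200, 109 and 55 reads in HDAC5AA replicates 1 to 4 and 0 in Uninjured libraries, so every HDAC5AA library held it. Igkv11-125 had 1, 84, 5 and 0 reads in HDAC5AA replicates 1 to 4, and Igkv4-91 had 50, 0, 0 and 1, both with 0 in Uninjured libraries. Igkv6-13 had 72 reads in HDAC5AA replicate 2, 0 in the other 3 and 2 in Uninjured replicate 3. These last 3 genes did not pass limma's adjusted p of 0.05 (0.216, 0.398 and 0.704), and each has most of its reads in 1 library.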
